A study of Mus musculus with 4 samples.

Results

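The genes described here are 10 symbols, Spp1, Fgl2, Cela1, Itih5, Tgm2, Scin, Itgad, Frmd5, Capn3 and Nsg2, out of 32285 genes counted in each sample. They code for secreted proteins, proteases, cross-linking and actin-binding proteins, an integrin and membrane proteins that are better known from other tissues than from T cells. The members were chosen by their UMI levels in T cells of these same samples, so their levels across T cell classes are given as a description, without a test.

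Intraepithelial T cells sit between the epithelial cells of the gut. They include T cells with a γδ receptor, αβ T cells that carry CD8 as a homodimer of its α chain and reach the gut early in life, and conventional CD8αβ and CD4 T cells that arrive after meeting antigen. Spp1 codes for osteopontin, a secreted ligand of CD44 and of integrins. Fgl2 codes for a fibrinogen-like protein with a soluble form that restrains immune cells through an inhibitory Fc receptor. Cela1 is a serine protease of the elastase family, best known from the exocrine pancreas, and Capn3 is a calcium-dependent cysteine protease best known from skeletal muscle. Itih5 belongs to a family of secreted proteins that bind hyaluronan, and Tgm2 cross-links proteins and is the autoantigen of coeliac disease. Scin severs actin filaments in the presence of calcium. Itgad is an integrin α chain that pairs with the β2 chain of leukocytes, Frmd5 is a FERM domain protein at the membrane, and Nsg2 is a vesicle protein of neurons.

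CD45+ cells, that is blood-derived cells, were sorted out of mouse small-intestinal crypts and profiled by droplet-based single-cell RNA sequencing with a 5′ kit, with 18000 cells loaded per sample. There were 2 samples from mice on the cystine diet and 2 from mice on the control diet. Groups come from the sample titles, since the treatment field reads "Control" for all 4 samples, and the protocol speaks of a high-cysteine diet where the titles say cystine. All 4 samples carry the entry "Male" in the genotype field, and no strain, age, diet length or transgene is given in the labels. The labels do not say whether a sample is 1 mouse or a pool, or whether the samples are separate animals. The p-values therefore reflect only how far the 4 samples differ among themselves, which may be technical.

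After filtering, 16324 and 14379 cells remained in cystine samples 1 and 2, and 14563 and 13483 in control samples 1 and 2, with 22375342 to 25761476 UMIs per sample. A UMI is a molecular barcode that counts 1 captured RNA molecule. Pairs of samples shared 251 to 329 cell barcodes. T cells were placed in classes by UMIs of receptor and coreceptor genes, as given at the end. The γδ class held 3851 and 4255 cells in cystine samples and 5041 and 5150 in control samples. For CD8αα αβ T cells the numbers were 2368 and 2185 in cystine samples and 2498 and 3028 in control samples. CD8αβ T cells numbered 1325 and 1297 in cystine samples and 555 and 471 in control samples. Only 56 and 89 CD4 T cells were found in cystine samples, and 74 and 42 in control samples. A further 4079 to 5983 cells per sample had a Cd3 UMI and met the rule of no class. The marker genes fit the classes in part. Cd5, a marker of conventional T cells, was at 71.2 to 178 CPM (counts per 1000000 UMIs of the class) in CD8αβ T cells and below 10 CPM in γδ and CD8αα αβ T cells. The CD8αα αβ class still held RNA of the γ chain gene Tcrg-C1, at 393 and 479 CPM in cystine and 483 and 414 CPM in control samples, against 581 to 789 CPM in γδ T cells. Tcrg-C2 was level between the classes, at 361 and 358 CPM in cystine and 352 and 308 CPM in control CD8αα αβ T cells, against 359 and 366 CPM in cystine and 346 and 310 CPM in control γδ T cells. Tcrg-C4 was level too, at 391 to 464 CPM in CD8αα αβ and 379 to 432 CPM in γδ T cells. The γ segment Tcrg-V7 was at 696 to 1557 CPM in CD8αα αβ and 989 to 1423 CPM in γδ T cells, and in control sample 2 it was higher in CD8αα αβ T cells. γδ T cells whose Trdc RNA was not captured cannot be told apart within it.

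RefSeq promoters were matched for 8 of the 10 genes, 11 promoters in all, and were searched for short core motifs. The promoters of Spp1, Capn3 and Cela1 are shown because they are the ones with a match. The promoters of Fgl2, Frmd5, Itih5, Nsg2 and Scin held 0 matches. The sequences run from 250 bases before to 50 bases after the RefSeq transcription start, on the gene's strand, in build GRCm38.p6. Capitals mark matches on either strand to short core motifs of factors used by lymphocytes.
Spp1, chr5:104434861-104435160, + strand: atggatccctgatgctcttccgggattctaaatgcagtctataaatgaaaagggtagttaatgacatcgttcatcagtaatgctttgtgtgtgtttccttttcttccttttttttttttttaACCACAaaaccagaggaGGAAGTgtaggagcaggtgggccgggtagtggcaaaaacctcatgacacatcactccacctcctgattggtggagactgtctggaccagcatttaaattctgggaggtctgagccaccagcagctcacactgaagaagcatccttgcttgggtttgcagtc
Capn3, chr2:120476659-120476958, + strand: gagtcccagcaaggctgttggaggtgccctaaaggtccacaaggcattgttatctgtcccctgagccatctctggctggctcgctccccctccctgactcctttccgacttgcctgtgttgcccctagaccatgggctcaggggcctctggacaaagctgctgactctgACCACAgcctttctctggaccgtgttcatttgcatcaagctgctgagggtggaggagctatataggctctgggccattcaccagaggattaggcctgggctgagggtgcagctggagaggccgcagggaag
Cela1, chr15:100687871-100688170, - strand: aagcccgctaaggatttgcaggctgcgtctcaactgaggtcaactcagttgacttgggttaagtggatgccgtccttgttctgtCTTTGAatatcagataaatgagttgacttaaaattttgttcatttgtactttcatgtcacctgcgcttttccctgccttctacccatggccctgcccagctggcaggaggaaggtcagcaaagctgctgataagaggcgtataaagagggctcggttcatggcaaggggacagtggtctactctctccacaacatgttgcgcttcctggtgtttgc
In the Spp1 promoter the capitals are a match to the RUNX core TGTGGT, read on the other strand, and a match to the ETS core GGAAGT. The Capn3 promoter holds 1 match to the RUNX core, also on the other strand, and the Cela1 promoter 1 match to the TCF and LEF core CTTTGA. The T-box core AGGTGT was searched as well and is in none of these 3. Such matches are common: of 32851 RefSeq promoters of the same length, 16.8% hold the RUNX core, 23.8% the ETS core, 16% the TCF and LEF core and 13.7% the T-box core. They describe the sequence only. Spp1 and Capn3 each have a second RefSeq start, whose promoter held 0 matches to the 4 cores; the start with a match is the one printed. Tgm2 and Itgad were not matched.

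Most of the 10 genes were read chiefly from γδ and CD8αα αβ T cells. Fgl2 was the most abundant, with 35166 UMIs in all kept cells, and Capn3 and Cela1 followed with 16337 and 14606 UMIs. Frmd5, Itgad, Itih5, Spp1 and Scin had between 4952 and 8999 UMIs. Tgm2 and Nsg2 were rare, with 1192 and 1190 UMIs. A 5′ library reads each transcript at its start, so these are molecule counts with no correction for length.

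**Figure D1:**
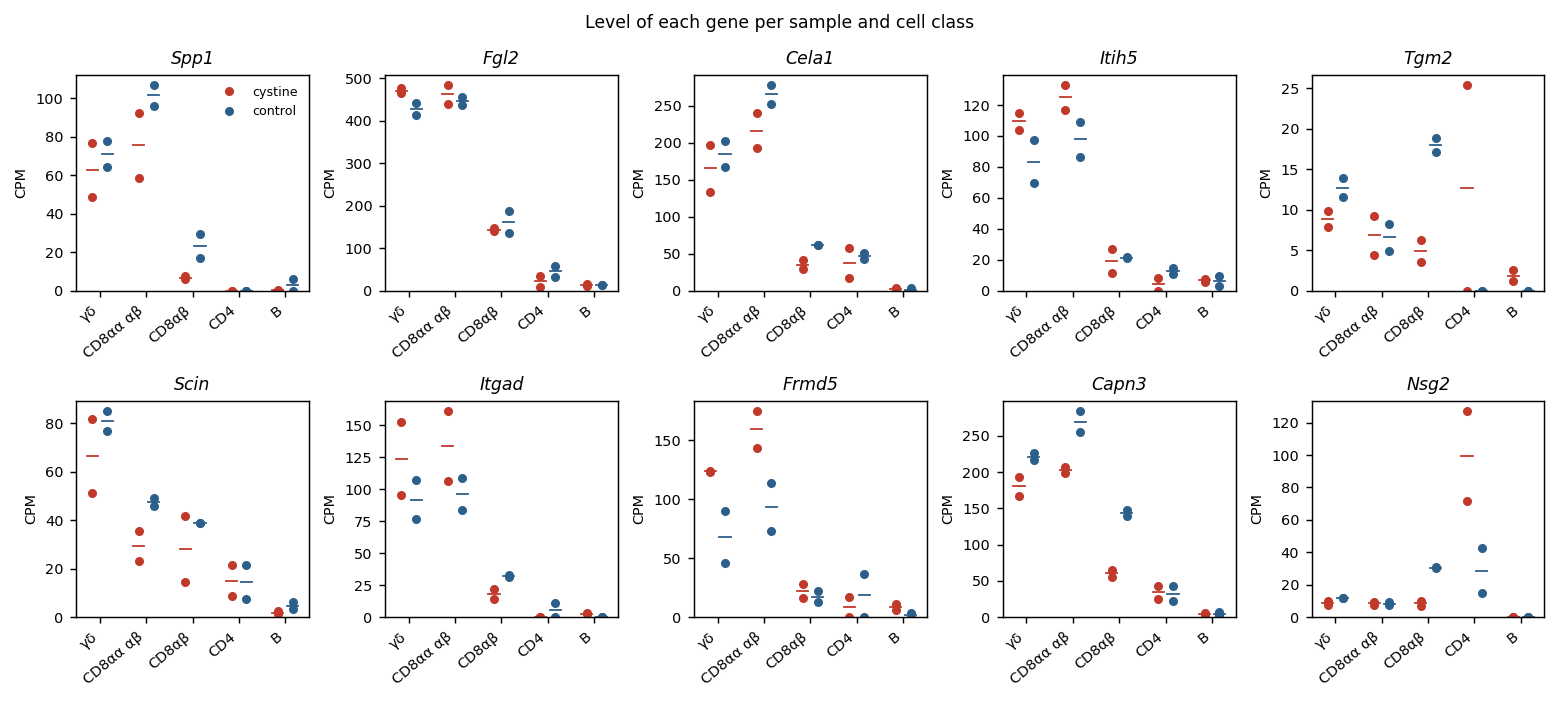
Level of each gene in CPM (UMIs per 1000000 UMIs of the class, vertical axis, from 0) in 5 cell classes. Each point is 1 sample, cystine left of control, and each short line is the mean of 2 samples. Spp1, Fgl2, Cela1, Itih5, Itgad, Frmd5 and Capn3 stand highest in γδ and CD8αα αβ T cells, and Scin in γδ T cells. Nsg2 stands highest in CD4 T cells in both cystine samples and in control sample 2, and below the CD8αβ level in control sample 1. B cells, which by rule had no Cd3 UMI, are taken as the background.

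Among the secreted proteins, Fgl2 averaged 449 ± 27.9 CPM in γδ T cells, 454 ± 22 in CD8αα αβ T cells, 153 ± 24.0 in CD8αβ T cells and 33.8 ± 20.6 in CD4 T cells (SD, n = 4 samples here and below). The γδ and CD8αα αβ levels differed by less than the spread between samples. Both exceeded the CD8αβ level in 4 of 4 samples. Spp1 averaged 67.0 ± 13.7 CPM in γδ, 88.5 ± 20.8 in CD8αα αβ and 15.1 ± 10.9 in CD8αβ T cells. No Spp1 UMI was seen in CD4 T cells in any sample, which allows up to 21.4 to 32.0 CPM per sample at a count of 3. Itih5 averaged 96.4 ± 19.3 CPM in γδ, 111 ± 19.3 in CD8αα αβ and 20.3 ± 6.22 in CD8αβ T cells, and 8.47 ± 6.21 in CD4 T cells. Itih5 and Spp1 were higher in CD8αα αβ than in γδ T cells in 4 of 4 samples, by less than 1 SD for Itih5.

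Both proteases had the same order. Cela1 averaged 175 ± 31.7 CPM in γδ, 241 ± 35.8 in CD8αα αβ, 48.3 ± 16 in CD8αβ and 42.1 ± 17.8 in CD4 T cells. Its CD8αβ and CD4 levels overlapped between samples. Capn3 averaged 201 ± 26.4 CPM in γδ, 236 ± 40.6 in CD8αα αβ, 102 ± 48.7 in CD8αβ and 33.3 ± 11.1 in CD4 T cells. The wide SD in CD8αβ T cells comes from a split by diet, described further on.

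The integrin and the FERM protein were also higher in γδ and CD8αα αβ than in CD8αβ T cells in 4 of 4 samples. Itgad averaged 108 ± 32.2 CPM in γδ and 115 ± 32.8 in CD8αα αβ T cells, against 25 ± 8.72 in CD8αβ T cells. In CD4 T cells a single Itgad UMI was seen, in control sample 2. Frmd5 averaged 95.8 ± 36.7 CPM in γδ, 126 ± 43.4 in CD8αα αβ and 19.8 ± 6.68 in CD8αβ T cells. The ratio of CD8αα αβ to CD8αβ mean levels was 6.37 for Frmd5, 5.87 for Spp1, 5.50 for Itih5, 4.98 for Cela1 and 4.61 for Itgad. It was 2.97 for Fgl2 and 2.32 for Capn3. These sizes depend on the class rule. With at least 2 UMIs of the defining genes and no UMI of 3 γ chain constant genes, CD8αα αβ T cells numbered 140 and 111 in cystine and 135 and 186 in control samples. CD8αβ means were then 4.63 CPM for Spp1, 4.41 for Itih5, 5.53 for Itgad, 8.73 for Frmd5 and 20 for Cela1. The ratios became 23.9 for Itih5, 17.0 for Itgad, 16.7 for Spp1, 14.3 for Frmd5 and 13.1 for Cela1, so that their order changed as well, and 5.37 for Fgl2 and 3.50 for Capn3.

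Scin, Tgm2 and Nsg2 departed from that order. Scin averaged 73.6 ± 15.3 CPM in γδ T cells, against 38.2 ± 11.7 in CD8αα αβ T cells, and was higher in γδ T cells in 4 of 4 samples, with a ratio of 1.93. Its CD8αβ level of 33.4 ± 12.6 CPM overlapped that of CD8αα αβ T cells, and the CD4 level was 14.7 ± 7.79 CPM. Tgm2 was low in all: 10.8 ± 2.55 CPM in γδ, 6.73 ± 2.41 in CD8αα αβ and 11.4 ± 7.64 in CD8αβ T cells. Tgm2 was read in 3 CD4 UMIs, all in cystine sample 1. Nsg2 averaged 10.1 ± 1.99 CPM in γδ, 8.29 ± 1.0 in CD8αα αβ, 19.5 ± 12.7 in CD8αβ and 64.0 ± 48.0 in CD4 T cells. The order of its means differed between the diets. In cystine samples the means were 8.60 CPM in γδ, 8.42 in CD8αα αβ, 8.55 in CD8αβ and 99.3 in CD4 T cells. In control samples they were 11.6, 8.16, 30.5 and 28.7 CPM, with the classes named in the same order. The Nsg2 level in CD4 T cells rests on 15 and 10 UMIs in cystine samples and 2 and 4 UMIs in control samples. It was below the CD8αβ level in control sample 1 and above it in control sample 2, so the order in control samples is not settled.

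Free RNA in droplets gives UMIs to cells that do not make them, and B cells were taken as the background for it. The B cell rule allowed no Cd3 UMI, which leaves out B cells that caught free Cd3 RNA. The B cell shares may therefore understate free T cell RNA. The share of γδ T cells with a UMI was 47.0% for Fgl2, 23.2% for Capn3, 21.3% for Cela1 and 8.16% for Spp1 as means over samples. In B cells the shares were 1.98% for Fgl2, 0.736% for Capn3, 0.341% for Cela1 and 0.279% for Spp1. Median depths were 1450 to 1787.5 UMIs in γδ T cells and 1176.5 to 1323 in B cells. After each cell was thinned to 1000 UMIs, at least 1 of the 10 genes was seen in 66.0 ± 2.17% of γδ and 70.2 ± 2.11% of CD8αα αβ T cells. For CD8αβ T cells the share was 30.6 ± 6.85%, for CD4 T cells 18.2 ± 2.59% and for B cells 4.20 ± 0.843%. No Nsg2 UMI was seen in B cells, which allows up to 1.53 to 9.52 CPM per sample. The CD4 shares for single genes rest on few cells, and the Itih5 level there is close to the 6.50 CPM of B cells.

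Outside T cells, few of these genes stood out. Myeloid cells, 38 to 62 per sample, held Tgm2 at 27.2 and 67.8 CPM in cystine samples and 96.3 and 45.8 CPM in control samples, above any T cell class. That rests on 5 to 13 UMIs per sample. Myeloid cells also held Fgl2 at 80.2 ± 31.4 CPM, above the 33.8 CPM of CD4 T cells and below the 153 CPM of CD8αβ T cells. Spp1 had 30 UMIs in the myeloid cells of cystine sample 2, against 0 in cystine sample 1 and 0 and 1 in control samples 1 and 2. They lay in 3 cells, 1 of which held 25 of them. Plasmacytoid dendritic cells held Itgad at 21.3 and 29.9 CPM in cystine and 15.5 and 25.7 CPM in control samples, below the γδ T cells in every sample. Their mean of 23.1 CPM was close to the 25 CPM of CD8αβ T cells.

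Within classes the 10 genes fell into 3 patterns, shown by subsets that were set by genes outside the list. In γδ T cells with a Cd8a UMI, which were most of the class, Spp1 was 4.72 times as high as in γδ T cells without one. Cela1 was 3.13, Itgad 2.53, Itih5 2.16, Capn3 1.9, Frmd5 1.84 and Fgl2 1.39 times as high, each in 4 of 4 samples. Spp1 lay between 54.0 and 86.2 CPM in cells with Cd8a and between 5.75 and 24.8 CPM in cells without, so the ranges did not overlap. Cells with Cd8a were deeper, with medians of 1496 to 1819 UMIs against 1177 to 1508 in cells without. CPM is a sum over cells, but the choice of cells by a UMI favours deep ones.

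Tgm2 and Nsg2 ran the other way. Tgm2 lay between 5.28 and 9.27 CPM in γδ T cells with Cd8a and between 23.8 and 54.7 CPM in those without, a ratio of 0.227. Nsg2 lay between 5.63 and 9.06 CPM with Cd8a and between 20.7 and 32.6 CPM without, a ratio of 0.277. Neither pair of ranges overlapped. Scin was also lower with Cd8a, at a ratio of 0.647, in 4 of 4 samples.

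Receptor chains gave a like division. Cells with a UMI of Tcrg-V7, a γ chain segment typical of intestinal γδ T cells, and none of Tcrg-V1 were compared with cells that had Tcrg-V1 and no Tcrg-V7. The Tcrg-V7 cells had more Cela1 (ratio 1.97), Itih5 (1.82), Spp1 (1.76), Capn3 (1.31) and Fgl2 (1.16) in 4 of 4 samples. Itgad and Frmd5 were nearly level, at ratios of 1.10 and 1.07 and higher in 3 of 4 samples. Tgm2 was between 2.29 and 6.77 CPM in Tcrg-V7 cells and between 14.8 and 31.0 CPM in Tcrg-V1 cells. Nsg2 was between 4.62 and 5.56 CPM in Tcrg-V7 cells and between 9.85 and 25.2 CPM in Tcrg-V1 cells. Scin was lower in Tcrg-V7 cells in 4 of 4 samples, at a ratio of 0.688. Tcrg-V1 resembles other γ segments in sequence, so reads may have been shared among them.

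In CD8αα αβ T cells the split was made by Fcer1g, an Fc receptor chain that marks the natural type. Cells with an Fcer1g UMI had 7.31 times the Spp1 level of cells without, and 3.56 times the Cela1, 2.69 times the Itih5, 2.53 times the Itgad and 2.28 times the Capn3 level. Frmd5 and Fgl2 were 1.82 and 1.77 times as high. Each held in 4 of 4 samples. Tgm2 and Nsg2 were lower with Fcer1g in 4 of 4 samples, at ratios of 0.248 and 0.214. These 2 ratios rest on few UMIs. The whole class held 118 Tgm2 and 147 Nsg2 UMIs, and cells without Fcer1g numbered 140 to 291 per sample. In CD8αβ T cells the Fcer1g split, which was chosen after the data were seen, was steeper for several genes: 9.02 for Itih5, 8.54 for Spp1, 8.31 for Frmd5 and 5.4 for Itgad. In CD8αβ T cells without Fcer1g, Spp1, Itih5, Itgad and Frmd5 lay between 1.63 and 11.9 CPM in all 4 samples. The CD8αβ ratio of Scin was 1.28, higher with Fcer1g in 2 of 4 samples.

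The split by Gzmk, a granzyme gene, set Scin apart. Scin was between 99.7 and 177 CPM in γδ T cells with a Gzmk UMI and between 42.3 and 67.4 CPM in those without. Its ratio was 2.46 in γδ, 2.34 in CD8αα αβ and 2.60 in CD8αβ T cells, higher with Gzmk in 4 of 4 samples of each class. Fgl2 was level between the subsets in γδ and CD8αα αβ T cells, at ratios of 1.02 and 0.949. The other members were lower with Gzmk in 4 of 4 samples of both classes, at ratios in γδ T cells of 0.190 for Tgm2 to 0.705 for Itih5.

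**Figure D2:**
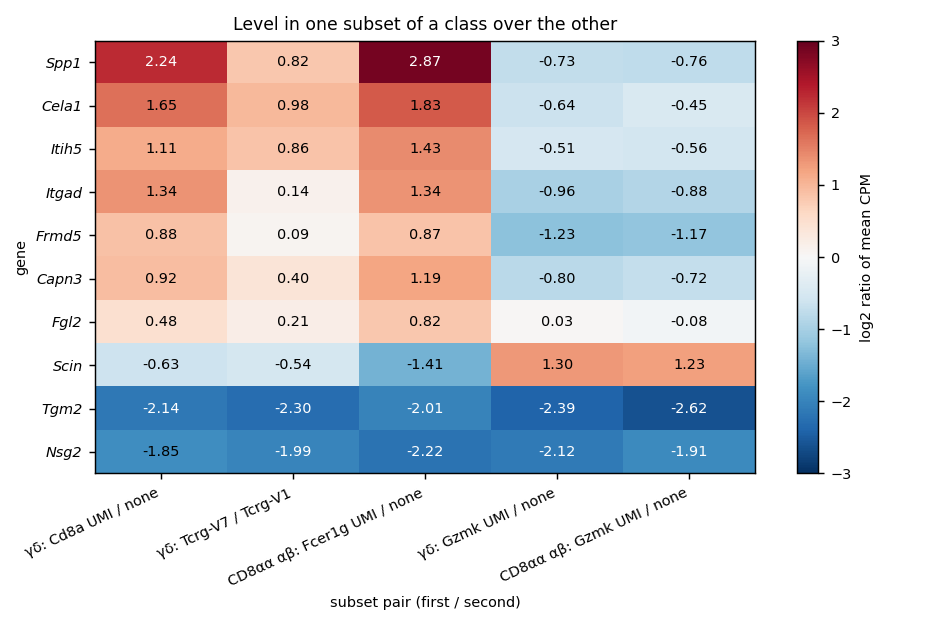
Log2 ratio of mean CPM over 4 samples (colour and printed value) for each gene in 5 pairs of subsets within γδ or CD8αα αβ T cells. The upper 6 genes are positive in the first 3 columns and negative in the Gzmk columns. Scin has the opposite signs, though its levels with and without Fcer1g overlap between samples. Fgl2 is near 0 for Gzmk, and Tgm2 and Nsg2 are negative throughout.

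Detection in single cells followed that division for some pairs and not for others. In γδ T cells thinned to 1000 UMIs, Frmd5 was seen in 15.3 ± 2.98% of cells with Itgad and 7.30 ± 2.78% of cells without, with 209 cells holding both. Cela1 and Frmd5, and Itih5 and Frmd5, were also seen together more often, at ratios of 1.94 and 1.8. Nsg2 was seen in 5.71 ± 1.60% of γδ T cells with Tgm2 and in 0.943 ± 0.256% of cells without, higher in 4 of 4 samples, on 9 cells with both. In the same thinned cells no cell held both Tgm2 and Scin, and none both Tgm2 and Spp1. Tgm2 was seen in 0.325% of cells with Fgl2 and 1.33% of cells without, lower in 4 of 4 samples. Capn3 followed the division with Itgad, Cela1 and Itih5, at ratios of 1.24, 1.23 and 1.14, each higher in 4 of 4 samples. With Spp1 its ratio was 1.11, higher in 3 of 4 samples. With Scin its share was lower in 4 of 4 samples, at a ratio of 0.568. Capn3 went against the division with Fgl2 and Tgm2. It was seen in 13.8% of cells with Fgl2 and 17.0% of cells without, lower in 4 of 4 samples, and in 20.8% of cells with Tgm2 and 15.9% of cells without, higher in 4 of 4 samples. With Frmd5 the Capn3 share was level, at a ratio of 1.0. Scin was seen in 3.57% of cells with Spp1 and 6.53% of cells without. Every pairing among Spp1, Cela1, Itih5, Itgad and Frmd5 had a ratio of 1.29 to 2.09. Cells with a gene thus held its partner more often than cells without that gene. This held in 4 of 4 samples except for Spp1 with Itih5, in 3 of 4. These shares pool cells of each sample and are a description.

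**Figure D3:**
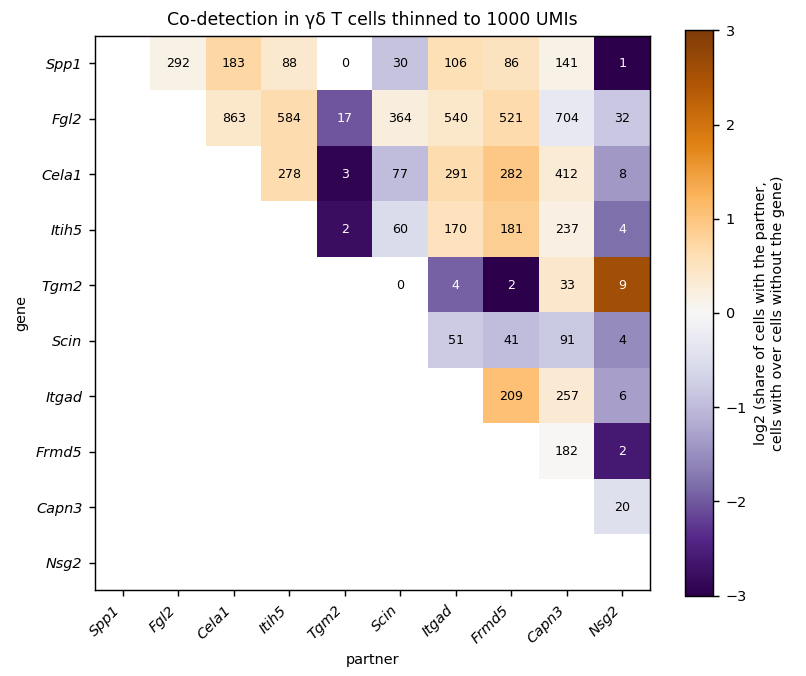
Co-detection of the 10 genes in γδ T cells thinned to 1000 UMIs. Colour is the log2 ratio of the share of cells with the partner (column) among cells with the gene (row) to that among cells without it, as a mean over 4 samples. The printed number is the count of cells with both, and white squares with 0 have no such cell. Each pair is drawn once, above the diagonal. Tgm2 with Nsg2 is the darkest positive pair, on 9 cells.

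Across the 16 sums of 4 classes in 4 samples, the genes most like each member were found by Pearson correlation of log2(CPM + 1). Of all genes, 6013 had a mean of at least 20 CPM, and members among them were left out of the ranking. The classes of a sample share its library, and the classes differ in many genes at once. The CD4 sums are small, at 93706 to 140002 UMIs. They held 0 UMIs of Spp1, 1 of Itgad, 3 of Tgm2 and 17 of Fgl2 in all, so these points lie at or near the counting floor. Their part in the correlations was not tested. Spp1 was most like Adh1 (r = 0.984) and Klrd1 (0.983), and Fgl2 like Dapk2 (0.989). Itgad was most like Tsga10 (0.997), Frmd5 like Klra5 (0.986), and Capn3 like Neurl3 (0.979) and Cd7 (0.977). Klrd1 and Klra5 code for NK-type receptors, and Cd7 for a membrane protein of T and NK cells. Cela1 was most like Cnst (0.955) and Itih5 like Ciapin1 (0.961). The rarer or divergent members had weaker or other partners: Tgm2 with Cpne3 (0.902), Scin with Pim2 (0.896), a kinase gene, and Nsg2 with Gstp3 (0.967). Between members, Spp1 and Capn3 correlated at 0.968, and Fgl2 and Nsg2 at -0.867.

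The diet was compared in each class on UMIs summed per sample, over all genes, with edgeR's quasi-likelihood test and Benjamini-Hochberg adjustment. Levels in this comparison are CPM scaled by TMM factors. In CD8αβ T cells, Capn3 and Nsg2 fell on the cystine diet. Capn3 was at 63.5 and 54.9 CPM in cystine samples, against 141 and 158 CPM in control samples. Its log2 fold change, cystine over control, was -1.34 (SE 0.14, adjusted p = 0.00150). Nsg2 was at 6.84 and 10.1 CPM in cystine samples, against 30.7 and 32.7 CPM in control samples, a log2 fold change of -1.88 (SE 0.30, adjusted p = 0.0187). Neither gene overlapped between the diets. Nsg2 rests on 14 and 24 UMIs in cystine and 32 and 31 UMIs in control samples. Both falls were known when the list was drawn up, so they are no independent support for it. Of 8914 genes tested in CD8αβ T cells, 0.718% were called in either direction, 0.179% as higher and 0.538% as lower, against 2 of the 10 members, both lower.

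The other 8 members did not pass in CD8αβ T cells. Spp1 was at 5.86 and 7.55 CPM in cystine and 17.3 and 31.6 CPM in control samples, with a log2 fold change of -1.83 (SE 0.38, adjusted p = 0.0635). Cela1 was at 28.3 and 41.1 CPM in cystine and 62.4 and 65.4 CPM in control samples (-0.87, SE 0.21, adjusted p = 0.106). Itgad was at 13.7 and 21.8 CPM in cystine and 31.7 and 34.8 CPM in control samples (-0.88, SE 0.28, adjusted p = 0.257). None of these 3 overlapped between the diets. Tgm2 had 7 and 15 UMIs in cystine samples and 18 and 19 in control samples, from larger cell numbers in the cystine samples. Scin, Fgl2, Itih5 and Frmd5 overlapped between the diets, at log2 fold changes of -0.50, -0.25, -0.26 and 0.26 and adjusted p of 0.714, 0.648, 0.872 and 0.858. In all, 6 members lay lower in both cystine samples than in both control samples and 0 higher, against 21.1% of all genes tested lower and 20.1% higher. The median log2 fold change was -0.87 over the 10 members and 0.0013 over all genes tested. Both the count and the median include Capn3 and Nsg2, whose falls were known when the list was drawn up. They also include Tgm2, which was below 20 CPM in both diets. They describe the list and are no independent support for a shift of it.

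The share of CD8αβ T cells with a Capn3 UMI was 7.77% (95% Clopper-Pearson interval 6.39 to 9.35) and 8.10% (6.67 to 9.72) in cystine samples 1 and 2. In control samples 1 and 2 it was 20.4% (17.1 to 24.0) and 20.4% (16.8 to 24.3). In B cells 0.521% to 1.01% had one. For Nsg2 the shares were 1.06% (0.579 to 1.77) and 1.62% (1.0 to 2.46) in cystine samples, against 5.59% (3.83 to 7.83) and 5.31% (3.46 to 7.74) in control samples. Intervals cover counting error only. After thinning to 1000 UMIs, Capn3 was seen in 5.83% and 4.72% of cells in cystine samples and 14.6% and 12.3% in control samples. Thinned Nsg2 shares were 0.628% and 1.16% in cystine and 2.06% and 2.68% in control samples. A two-sided exact permutation test of 2 against 2 samples cannot go below 0.33, which is what it gave for both genes.

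The make-up of the CD8αβ class moved with the diet. Cells with a Gzmk UMI were 805 of 1325 and 721 of 1297 in cystine samples, and 99 of 555 and 124 of 471 in control samples. Cells with an Fcer1g UMI were 335 of 1325 and 262 of 1297 in cystine samples, and 212 of 555 and 158 of 471 in control samples, a smaller share in both cystine samples. The γδ marker list, with 7 of 9 genes in the files, summed to 333 and 469 CPM in CD8αβ T cells of cystine samples and 753 and 841 CPM of control samples, with Trdc at 0 by the rule. The macrophage list of 12 genes summed to 125 and 114 CPM in cystine and 200 and 351 CPM in control samples. In that list C1qa was at 1.01 and 0 CPM in cystine and 32.3 and 65.3 CPM in control samples. Secretory genes of Paneth and goblet cells, a list of 12, summed to 444 and 740 CPM in cystine and 39.9 and 29.7 CPM in control samples, and moved in the same direction in γδ and CD8αα αβ T cells. Control sample 2 stood lowest in Cd5, at 71.2 CPM. Their part in the results was not tested, except for Gzmk, Fcer1g and the γ chains as follows.

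Within each subset Capn3 and Nsg2 were lower in both cystine samples. Capn3 was at 48.0 and 39.7 CPM in cystine and 103 and 138 CPM in control samples among Gzmk cells, and at 91.0 and 72.0 CPM in cystine and 147 and 153 CPM in control samples among cells without Gzmk. Among cells without Fcer1g it was at 43.4 and 47.5 CPM in cystine and 124 and 101 CPM in control samples. Nsg2 without Gzmk was at 8.73 and 15.1 CPM in cystine and 33.4 and 37.8 CPM in control samples. Without Fcer1g, Nsg2 was at 8.82 and 12 CPM in cystine and 33.9 and 37.5 CPM in control samples. Over all samples Nsg2 lay between 5.56 and 16.3 CPM with Gzmk and between 3.18 and 25.9 CPM with Fcer1g. The whole class held 38 Nsg2 UMIs in cystine and 63 in control samples, so its subset levels rest on few UMIs. Itgad without Gzmk was at 24.9 and 34.7 CPM in cystine and 28.8 and 37.8 CPM in control samples, which overlap. Spp1 without Fcer1g was at 2.20 and 3.43 CPM in cystine and 5.09 and 4.89 CPM in control samples.

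**Figure D4:**
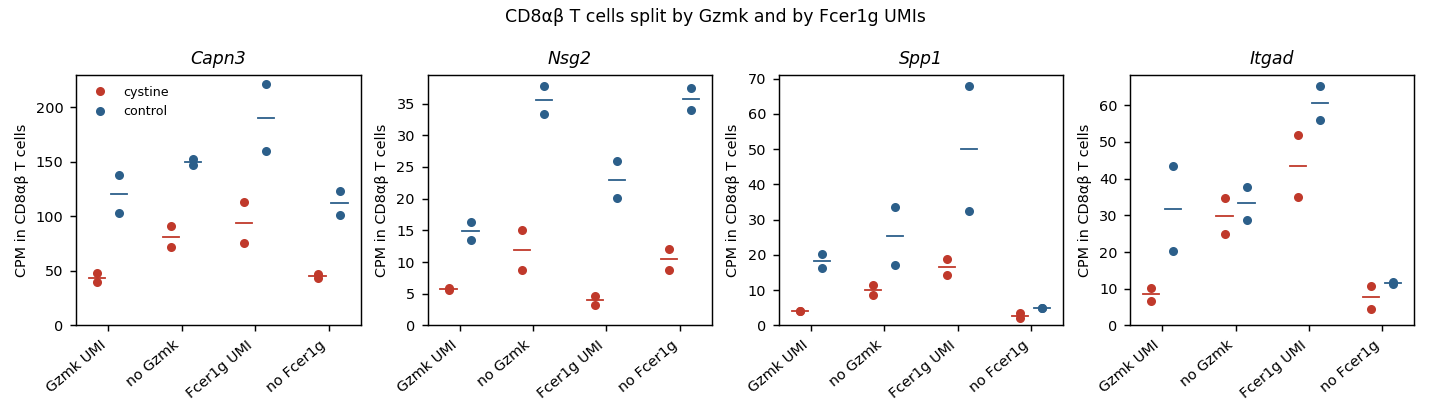
CPM of 4 genes in CD8αβ T cells split by a Gzmk or an Fcer1g UMI. Points are samples, cystine left of control, and short lines are means of 2 samples. Capn3 and Nsg2 lie lower in both cystine samples in all 4 subsets, for Nsg2 on few UMIs, whereas Itgad overlaps between the diets in cells without Gzmk.

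With a stricter rule, at least 2 Cd8b1 UMIs and no UMI of 3 γ chain constant genes, 617 and 525 CD8αβ T cells remained in cystine samples and 142 and 111 in control samples. Nsg2 still fell, by 2.73 on the log2 scale (SE 0.47, adjusted p = 0.0198). Capn3 was at -0.86 (SE 0.28, adjusted p = 0.251) and did not pass. Where a sample is left out, its diet has 1 sample, which is assumed to vary like the pair of the other diet, and only that pair gives the spread. Without control sample 1 or 2 the adjusted p of Capn3 was 0.101 and 0.202, at log2 fold changes of -1.42 and -1.25. Nsg2 did not pass without control sample 1 or 2 or cystine sample 1, nor without doublet removal or among cells without Gzmk, at log2 fold changes of -1.93 to -1.56 and adjusted p of 0.0576 to 0.588.

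**Figure D5:**
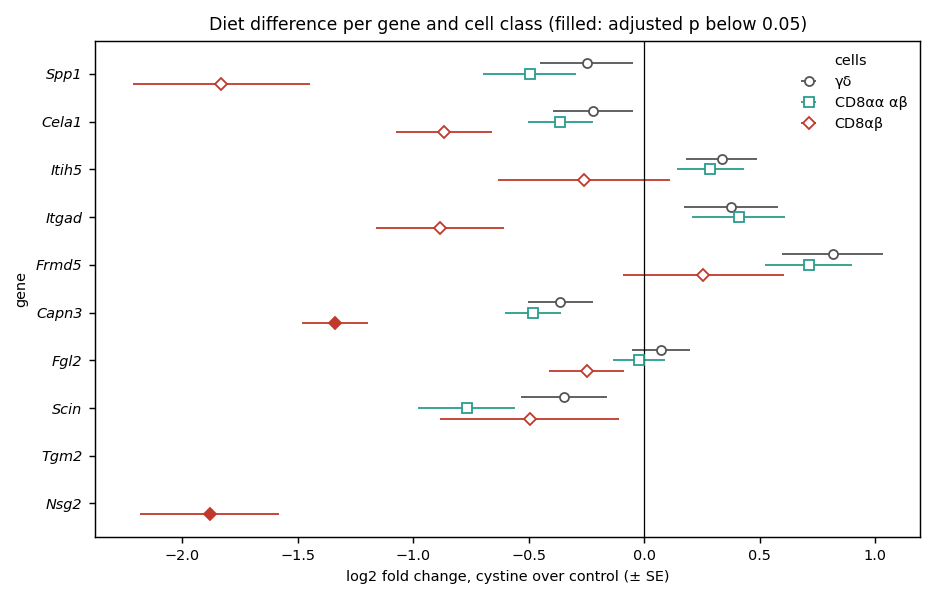
Log2 fold change, cystine over control, with SE for each gene in γδ (circles), CD8αα αβ (squares) and CD8αβ T cells (diamonds), from edgeR's quasi-likelihood test on sums of 2 samples per diet. Filled symbols mark an adjusted p below 0.05: Capn3 and Nsg2 in CD8αβ T cells. Values below 20 CPM in both diets are not drawn, which leaves out Tgm2 in all 3 classes and Nsg2 in γδ and CD8αα αβ T cells.

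In γδ T cells 0 of 10 members passed the edgeR test and DESeq2 called 0. An unadjusted p below 0.05 was found for 5 of them, against 6.68% of all genes tested. Their directions were mixed. Itih5 and Frmd5 were higher in cystine samples, and Capn3, Tgm2 and Nsg2 lower, with Tgm2 and Nsg2 under 20 CPM in both diets. Across all 11507 genes tested, 0.261% passed, 0.209% as higher and 0.0521% as lower. Frmd5 was at 122 and 121 CPM in cystine samples and 88.8 and 49.1 CPM in control samples, a log2 fold change of 0.82 (SE 0.22, adjusted p = 0.260). The groups did not overlap, but the 2 control samples were further apart than control sample 1 from the cystine samples. Frmd5 passed in 6 of 13 alternative settings, 3 of which left out a sample: 1.30 without control sample 1 (adjusted p = 0.00885), 0.81 without cystine sample 1 (adjusted p = 0.0434) and 0.82 without cystine sample 2 (adjusted p = 0.0216). These 3 rest on a diet with 1 sample, so they are no sign of stability. Capn3 was at 191 and 163 CPM in cystine and 215 and 240 CPM in control samples (-0.36, SE 0.14, adjusted p = 0.643). Itih5 was at 103 and 112 CPM in cystine and 96.1 and 74.0 CPM in control samples (0.34, SE 0.15, adjusted p = 0.741). Spp1, Cela1 and Itgad overlapped between the diets. Of the 10 members, 3 lay higher in both cystine samples and 4 lower, against 17.7% and 17.3% of all genes tested. Cells with a Gzmk UMI, in which Frmd5 was lower and Scin higher, were 13.1% and 13.2% of the class in cystine samples. In control samples they were 18.9% and 29.8%. Over the 13 alternatives, cells without Gzmk among them, log2 fold changes were 0.45 to 1.30 for Frmd5 and -0.71 to -0.060 for Scin. Beyond the alternative of cells without Gzmk, the part of this share in the diet values was not tested.

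In CD8αα αβ T cells 0 of 10 members passed the edgeR test and DESeq2 called 0. An unadjusted p below 0.05 was found for 5 of them, against 6.30% of all genes tested. Of these, Frmd5 was higher in cystine samples, and Spp1, Cela1, Scin and Capn3 were lower. The share called over all 10511 genes tested was 0.0856%, with 0.0761% higher and 0.00951% lower. Capn3 was at 202 and 195 CPM in cystine samples and 282 and 272 CPM in control samples (-0.48, SE 0.12, adjusted p = 0.476). Frmd5 was at 170 and 141 CPM in cystine and 113 and 77.6 CPM in control samples (0.71, SE 0.19, adjusted p = 0.496). Scin was at 22.4 and 34.8 CPM in cystine and 45.2 and 52.2 CPM in control samples (-0.77, SE 0.21, adjusted p = 0.538). Fgl2 was level, at 473 and 433 CPM in cystine and 452 and 466 CPM in control samples. Here 2 members lay higher in both cystine samples and 4 lower, against 18.6% and 17.4% of all genes tested. Cells with a Gzmk UMI were 12.1% and 12.3% of this class in cystine samples and 14.2% and 27.9% in control samples. Frmd5 was lower and Scin higher in such cells. For Frmd5 the log2 fold changes were 0.46 to 0.98 over 13 alternatives, cells without Gzmk among them. For Scin they were -1.13 to -0.47 over the 12 alternatives in which it was tested. The part of the Gzmk share in the diet values was likewise not tested beyond cells without Gzmk.

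No member had enough UMIs in CD4 T cells to be tested. There, 0 of 2159 genes passed the edgeR test (0%), 136 had an unadjusted p below 0.05 and DESeq2 called 2. Capn3 had 3 and 6 UMIs in cystine and 3 and 4 in control samples, and Cela1 2 and 8 in cystine and 7 and 4 in control samples.

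Whether the diet difference itself differed between classes was tested with an interaction term, in a fit that also held a term for each sample. Against γδ T cells, the diet difference in CD8αβ T cells was lower by 1.59 on the log2 scale for Spp1 (SE 0.32, adjusted p = 0.0185). For Itgad it was -1.26 (SE 0.24, adjusted p = 0.0129) and for Capn3 -0.96 (SE 0.13, adjusted p = 0.000790). These 3 of 10 members passed, all lower, against 0.967% of 11269 genes tested, 0.373% higher and 0.595% lower. Nsg2 was at -1.39 (adjusted p = 0.0586). The fall of Capn3 in CD8αβ T cells was known when the list was drawn up, so its calls here are no independent support. Against CD8αα αβ T cells, Itgad at -1.29 (SE 0.22, adjusted p = 0.0226) and Capn3 at -0.84 (SE 0.15, adjusted p = 0.0280) passed, 2 of 10 members both lower, against 0.55% of 10729 genes tested, 0.224% higher and 0.326% lower. Nsg2 was at -1.87 (adjusted p = 0.0755) and Spp1 at -1.34 (adjusted p = 0.175). Itgad did not pass for the diet in CD8αβ T cells alone, and its mean was higher in cystine than in control samples in γδ T cells and lower in CD8αβ T cells. Under the stricter class rule the Itgad differences were 0.42 against γδ and 0.59 against CD8αα αβ T cells, with the sign turned, and those of Spp1 and Capn3 did not pass. Itgad was then at 3.48 to 9.46 CPM in CD8αβ T cells, under the 20 CPM set for a fold change, so the turned sign rests on low counts. Without control sample 2, none of the 3 passed against γδ T cells, at -1.30 for Spp1, -1.01 for Itgad and -0.95 for Capn3 (adjusted p = 0.485, 0.397 and 0.0893). Spp1 also did not pass without control sample 1 or cystine sample 2 (adjusted p = 0.0676 and 0.124), nor Itgad without control sample 1 (adjusted p = 0.0526). Against CD8αα αβ T cells, Itgad did not pass without control sample 2 (-1.09, adjusted p = 0.0940), nor Capn3 without cystine sample 2 (-0.76, adjusted p = 0.0685). Without doublet removal neither passed (-0.96 for Itgad and -0.60 for Capn3, adjusted p = 0.0874 and 0.153), and Capn3 did not pass with the stricter cell filter (-0.74, adjusted p = 0.132). Against CD8αα αβ T cells Itgad thus passed in 7 and Capn3 in 6 of 10 alternatives. The γδ and CD8αβ sums come from the same libraries.

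Relatives of the 10 genes were read from 10 lists of 80 genes, of which 79 were in the files. In γδ, CD8αα αβ, CD8αβ and CD4 T cells 32, 30, 28 and 12 of them had enough UMIs to be tested. In each of the 4 classes 0 passed the edgeR test in either direction and DESeq2 called 0, with 5, 3, 8 and 0 at an unadjusted p below 0.05. Over all genes tested, 6.68%, 6.30%, 10.9% and 6.30% had such a p in these classes. Of the osteopontin receptors, 5 of 9 were tested in CD8αβ T cells. Itga4, an integrin α chain, was at 195 and 166 CPM in cystine and 123 and 104 CPM in control samples (log2 fold change 0.66, adjusted p = 0.0724). Cd44 was at 45.9 and 53.7 CPM in cystine and 60.5 and 82.2 CPM in control samples (-0.51, adjusted p = 0.345). Of the leukocyte integrins, 6 of 7 were tested in γδ T cells. Itgae, whose product binds E-cadherin on epithelial cells, was at 953 and 1017 CPM in cystine and 1051 and 911 CPM in control γδ T cells. Its partner Itgb7 was at 384 and 378 CPM in cystine and 376 and 428 CPM in control γδ T cells. Itgb2, which codes for the partner chain of Itgad and was chosen after its values were seen, was at 203 and 202 CPM in cystine and 218 and 262 CPM in control γδ T cells.

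Other family members behaved as follows. The calpain list had 7 of 15 genes tested in each of γδ, CD8αα αβ and CD8αβ T cells. Capns1, the regulatory subunit of the classical calpains, was at 181 and 174 CPM in cystine and 145 and 167 CPM in control CD8αβ T cells. Cast, the calpain inhibitor, was at 110 and 96.0 CPM in cystine and 78.7 and 108 CPM in control CD8αβ T cells. Among gelsolin relatives, 4 of 7 were tested in CD8αβ T cells, and Gsn was at 83.0 and 93.9 CPM in cystine and 92.1 and 77.0 CPM in control samples. Among FERM genes, Epb41 was at 149 and 143 CPM in cystine and 165 and 147 CPM in control γδ T cells. Fcgr3, an activating Fc receptor in the FGL2 list, was at 35.9 and 31.3 CPM in cystine and 25.2 and 21.5 CPM in control γδ T cells (0.52, adjusted p = 0.379). No other elastase or trypsin-like gene, no other inter-α-trypsin inhibitor gene and neither gene of the NSG list had enough UMIs to be tested in any class. Of the transglutaminases, 1 was tested, F13a1 in γδ T cells, at under 2 CPM.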

How the data were processed

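The authors deposited whole-number UMI counts per gene and barcode for 4 samples, over 32285 genes; per the file headers the matrices carry software version 7.0.1, whereas the submitters' processing notes list GRCm39 with Seurat 4.0.1 and Cell Ranger 3.1.0. Every deposited barcode has at least 500 UMIs. The count of each gene was used as deposited. Barcodes under 300 genes or over 10% mitochondrial UMIs were left out. The highest Scrublet scores (scanpy 1.11.5) were removed as doublets, at 0.8% per 1000 barcodes. The deposited barcodes numbered 19351 and 16653 in cystine samples and 16865 and 15391 in control samples, with 58749 cells kept and medians of 1295 to 1712 UMIs.

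All T classes needed 1 UMI of Cd3d, Cd3e or Cd3g. γδ: Trdc, no Cd8b1 or Cd4. CD8αα αβ: Cd8a and Trac, no Cd8b1, Cd4 or Trdc. CD8αβ: Cd8a and Cd8b1, no Cd4 or Trdc. CD4: Cd4, no Cd8a, Cd8b1 or Trdc. B cells: Cd79a and Ms4a1, no Cd3. Plasmacytoid dendritic cells: Siglech and Bst2. Myeloid cells: Lyz2 with Csf1r, C1qa or Cd68. Neither of these 2 had Cd3 or Cd79a. γδ segments were read under the symbols Tcrg-V7 and Tcrg-V1, the files' spelling.

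UMIs were summed per sample and class and tested with edgeR 4.0.16 (filterByExpr, TMM, quasi-likelihood test, Benjamini-Hochberg, adjusted p below 0.05), with 2 samples per diet and no block. DESeq2 1.42.0 was an alternative. The other alternatives were size factors, no low-count filter, the replicate block, stricter cells, no doublet removal, stricter classes, no immunoglobulin or receptor genes, and leaving out each sample. Cells without Gzmk were added after the data were seen. The edgeR steps were tested on simulated data. Fold changes are given where 1 diet averages at least 20 CPM. Likeness named the genes of highest correlation, and from each list the 2 most abundant genes at most. The members and lists were chosen with earlier results of these data known.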

Additional observations from a re-analysis of the deposited data

Results flagged for a closer look

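Results are listed here because the diet difference itself differed between cell classes in edgeR's interaction test (cystine over control in CD8αβ T cells minus the same in the other class, log2). Against γδ T cells it was -1.59 for Spp1, -1.26 for Itgad and -0.96 for Capn3. Against CD8αα αβ T cells it was -1.29 for Itgad and -0.84 for Capn3. The γδ marker list stood at 333 and 469 CPM in CD8αβ T cells of cystine samples and at 753 and 841 CPM in those of control samples. Its part in these differences was not tested, apart from the stricter class rule, under which none of the 5 passed. Under that rule Spp1 and Itgad averaged 4.63 and 5.53 CPM in CD8αβ T cells, below the 20 CPM set for a fold change.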

How the results depend on the processing

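Of the counts of genes called, those that moved by over 1.5 times were as follows; the cause was not tested. In γδ T cells (30 genes), 293 were called with no low-count filter, 210 with the replicate block, 12 with 800 genes and 5% mitochondrial UMIs, and 6 to 205 without 1 sample each. In CD8αα αβ T cells (9), DESeq2 called 16, no filter gave 235, the replicate block 48, the stricter classes 1 and leaving out a sample 6 to 160. In CD8αβ T cells (64), DESeq2 called 42, no filter gave 314, the replicate block 175, no doublet removal 16, the stricter classes 40 and leaving out a sample 2 to 99. In CD4 T cells (0), DESeq2 called 2, no filter gave 54, the replicate block 4, no doublet removal 2 and leaving out a sample 0 to 79. Of the 109 differences against γδ T cells, 229 were called with no filter, 46 with stricter classes and 10 to 149 without a sample; of the 59 against CD8αα αβ T cells, 218, 13 and 77 to 169, and 34 without doublet removal. Same-numbered samples deviated with correlations of -0.0400, -0.0600 and -0.0757 in γδ, CD8αα αβ and CD8αβ T cells, so the numbers are not treated as pairs. With the replicate block Capn3 and Nsg2 kept their calls, and Spp1 (-1.85, adjusted p = 0.0155) and Cela1 (-0.89, adjusted p = 0.0276) passed in CD8αβ T cells and Frmd5 (0.87, adjusted p = 0.000101) in γδ T cells.

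Fold changes turned sign under the stricter classes for Spp1 in γδ (0.13), Cela1 (0.12), Itih5 (-0.055) and Capn3 (0.020) in CD8αα αβ and Fgl2 in CD8αβ T cells (1.03), and for the differences of Itgad (0.42 and 0.59). Itgad then averaged 5.53 CPM in CD8αβ T cells, under the 20 CPM set for a fold change. Fgl2 in γδ T cells was at -0.0061 without doublet removal, and Itih5 in CD8αβ T cells at 0.30 among cells without Gzmk. Without 1 sample each, the ranges were -0.61 to 0.037 for Spp1 and -0.52 to 0.025 for Cela1 in γδ, -0.089 to 0.040 for Fgl2 in CD8αα αβ, and in CD8αβ T cells -0.50 to 0.045 for Fgl2, -0.91 to 0.23 for Itih5, -1.50 to 0.048 for Scin and -0.14 to 0.65 for Frmd5. Without cystine sample 2, Scin passed in CD8αα αβ (-1.13, adjusted p = 0.00488) and CD8αβ T cells (-1.50, adjusted p = 0.0260), and Cela1 in CD8αβ T cells (-1.17, adjusted p = 0.0418), where the cystine arm is 1 sample and the control pair alone gives the spread. Spp1 against γδ T cells passed in 5 of 10 alternatives, Capn3 in 8 and Itgad in 7. Mean levels stayed within 1 SD for 40 of 40 under the stricter cell filter and 28 of 40 under the stricter classes, and shares of cells with a UMI for 15 of 40 after thinning. Depth limits CD4 T cells and the rare Tgm2 and Nsg2.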

Other observations

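In cells with a Cd3 UMI that met the rule of no class, the 7 genes high in γδ T cells stood between the γδ and the CD8αβ levels except Frmd5: Fgl2 averaged 378 ± 27.8 CPM, Capn3 163 ± 30.9, Cela1 140 ± 23.7, Frmd5 118 ± 34.9, Itgad 90.6 ± 21.3, Itih5 84.3 ± 18.2 and Spp1 44.8 ± 13 CPM (SD, n = 4). Frmd5 there was above its γδ mean of 95.8 CPM. Nsg2 averaged 18.8 ± 3.33 CPM and Tgm2 17.5 ± 4.57 CPM in these cells, both above their γδ means of 10.1 and 10.8 CPM.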
